A study of Rattus norvegicus with 2 samples.

Results

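The comparison described here is that of OBP-801 with saline in the lateral prostate of TRAP rats, measured on 1 two-colour oligonucleotide array of the 2 arrays in the series. TRAP rats carry SV40 T antigen under the probasin promoter, which is active in prostate epithelium, and develop prostate tumours. Males aged 6 weeks received intravenous OBP-801 or saline 2 times per week for 8 weeks on a control diet, and the lateral prostate was labelled as cancer tissue in both groups. The dose was 1 mg/kg in the treatment protocol, while other labels gave the amount without a body weight. Saline RNA was labelled with Cy5 and OBP-801 RNA with Cy3. The labels do not say how many rats contributed to each RNA. The array was chosen by its label, and all its probes that carried an Ensembl rat gene ID were examined, 20174 in all.

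OBP-801 inhibits histone deacetylases, which take acetyl groups off the lysines of histones and many other proteins. Acetylated histones are found at active promoters and enhancers, and inhibitors of these enzymes are known to raise some transcripts and lower others in treated cells. The lateral prostate is one of the paired lobes of the rat prostate, and it secretes a set of proteins that differs from that of the ventral lobe.

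The array was not replicated, and none of the differences was tested across animals. The dyes were not swapped, and for a single probe the treatment and a preference for either dye cannot be told apart. Only technical error could be measured. Over 24 spots each, the log2 ratio of the positive controls had an SD of 0.06 and 0.08, around means of 0.19 and -0.30. The means of these controls thus lay further from 0 than the scatter of their spots. No probe ID could be paired with a gene symbol, so the labelled tissue could not be checked against marker genes, and no gene list was evaluated. At most 2 higher and 2 lower probes are given by ID, and the others are described as groups.

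Net signal is the spot median less the mean of the blank spots, in scanner intensity units. A probe is called measured where the net signal of both channels was at least 10 SDs of the blanks. This corresponded to 11.7 units with saline and 28.5 units with OBP-801. Blank means and SDs leave out 5% of the blank spots at each end. Of all blank spots, 9.62% exceeded 2 such SDs with saline and 8.23% with OBP-801. The Cy3 channel was 2.01-fold brighter than Cy5 for the median detected probe, so the OBP-801 limit was equivalent to 14.2 saline units. All ratios are log2 of OBP-801 over saline after correction of this dye balance by a loess curve. Of the 20174 gene probes, 10796 (53.5%) were measured, and 4448 were under 2 blank SDs in both channels. The median net signal of the measured probes was 140 units with saline and 277 units with OBP-801.

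Relative to the typical probe of their brightness, most measured probes differed little between OBP-801 and saline. The ratio lay within 1.5-fold for 85.0% of the measured probes, and the middle 95% ran from -0.83 to 0.90 on the log2 scale. With OBP-801, 205 probes were at least 2-fold higher, 1.9% of those measured, and 141 were at least 2-fold lower, 1.31%. At 3-fold there were 22 higher and 21 lower probes, and at 4-fold 8 and 4. In whole tissue, fewer cells of a type and less RNA per cell cannot be told apart. The technical error of a ratio, from the blank SDs and the more variable positive control, was 0.09 on the log2 scale for the median of these 346 probes. This error leaves out the difference between animals and any dye preference. The threshold cut a continuous range, with folds of 2.004 and 1.998 just inside and just outside it among higher probes and 2.01 and 1.998 among lower ones. Subtraction of each spot's local background instead of the blank mean gave 836 higher and 409 lower probes, and an offset of 50 units that damps dim probes gave 58 and 58.

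**Figure D1:**
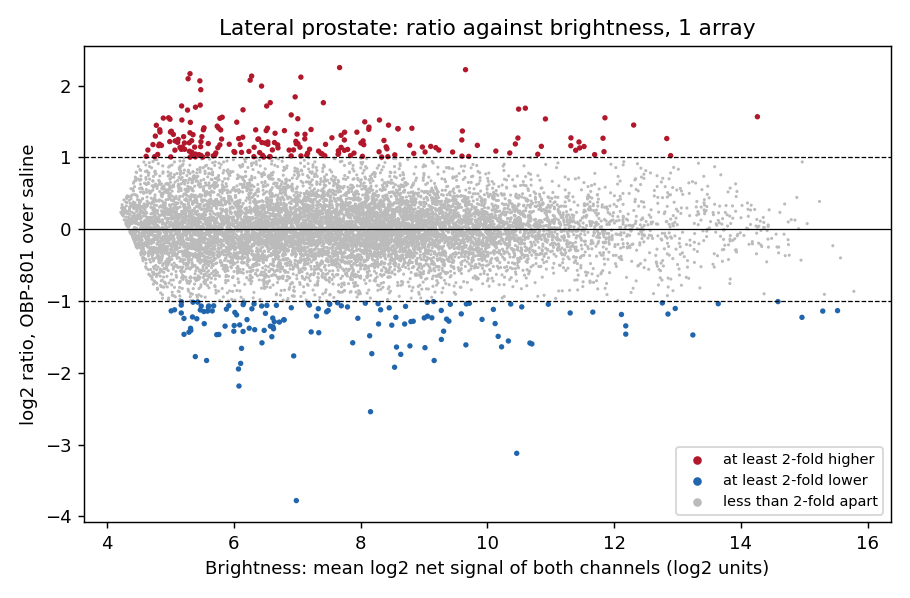
Log2 ratio of OBP-801 over saline in lateral prostate (vertical axis) against brightness, the mean log2 net signal of both channels (horizontal axis), for the 10796 measured probes of 1 array. Each point is a probe, and dashed lines mark 2-fold. The 205 higher probes are in red and the 141 lower probes in blue, and the lowest point has a log2 ratio of -3.78.

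Among measured probes, the 2 with the largest ratios were ENSRNOG00000015438 and ENSRNOG00000013768. ENSRNOG00000015438 had a net signal of 66.3 units with saline and 624 units with OBP-801, which after dye balance was 4.76-fold higher (log2 ratio 2.25, technical error 0.08). ENSRNOG00000013768 had 264 units with saline and 2465 units with OBP-801, and was 4.66-fold higher (2.22, technical error 0.08). Both were also higher on the ventral array, by 3.71-fold and 2.98-fold. ENSRNOG00000013768 had 28.9 units in ventral saline RNA and 177 units in ventral OBP-801 RNA. Both lay below its lateral saline signal, although the arrays were not scaled to each other.

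The 2 measured probes with the lowest ratios departed further from 0 than the 2 measured probes with the highest. ENSRNOG00000009768 had 336 net units with saline and 47.8 units with OBP-801, a 13.7-fold lower level (log2 ratio -3.78, technical error 0.11). In the ventral lobe this probe was dim in both channels, with 10.9 units with saline and 22.4 units with OBP-801, the latter 9.36 blank SDs and so just under the limit. Its ventral log2 ratio was -0.03 with a technical error of 0.22. The lower level with OBP-801 was seen in the lobe where the saline signal was high, on arrays that were not scaled to each other.

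ENSRNOG00000004320 had 2931 net units with saline and 680 units with OBP-801 in the lateral lobe, a level 8.70-fold lower (log2 ratio -3.12, technical error 0.08). On the ventral array it had 32.8 units with saline and 529 units with OBP-801, 7.80-fold higher with OBP-801 (2.96, technical error 0.13). It was the only probe measured on both arrays that moved at least 2-fold in opposite directions. The 2 OBP-801 signals, 680 and 529 units, lay much closer together than the saline signals of the lobes. These are signals of 2 arrays that were not scaled to each other.

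**Figure D2:**
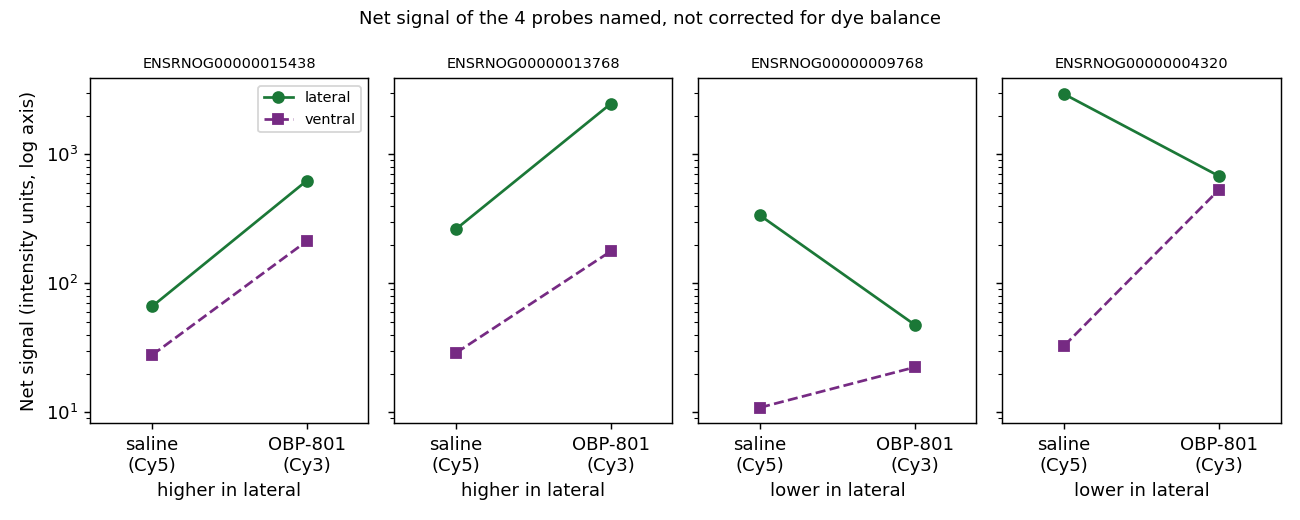
Net signal (vertical axis, log scale, intensity units) of the 4 probes given by ID, in saline (Cy5) and OBP-801 (Cy3) RNA, before correction of the dye balance. Each point is 1 spot, with green circles for lateral and purple squares for ventral prostate. The lines of ENSRNOG00000004320 slope in opposite directions, from 2931 to 680 units in lateral and from 32.8 to 529 units in ventral prostate, and the ventral slope of ENSRNOG00000009768 is that of the dyes, with a log2 ratio of -0.03 after dye balance.

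The other strongly higher probes mostly gave low signals in saline-treated rats. The 15 highest ratios of measured probes ran from 3.28-fold to 4.76-fold, from saline signals of 13.4 to 264 units to OBP-801 signals of 91.3 to 2465 units. Over all 205 higher probes the median net signal was 45.4 units with saline and 216 units with OBP-801, against 140 and 277 units for all measured probes. Of the 205, 14 had 1000 units or more in saline RNA, and the share of all measured probes at that level was not counted. Among all measured probes, the 1080 with the highest mean brightness of both channels had a median saline signal of 2233 units. The higher probes held 0.788% of the net signal of measured probes with saline and 1.95% with OBP-801. Their choice by ratio fixed the direction of this change in advance.

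The lower probes had higher signals in saline-treated rats. Signals depend on the probe as well as on the transcript, so brightness does not rank genes by abundance. The median net signal of the lower probes was 187 units with saline and 154 units with OBP-801. Of the 141, 26 had 1000 units or more in saline RNA, again without a count over all measured probes. The 26 and the 14 among higher probes are therefore not read as a contrast. The 15 lowest ratios of measured probes ran from 3.14-fold to 13.7-fold lower, with saline signals of 55.7 to 2931 units. The lower probes held 4.09% of the net signal with saline and 1.86% with OBP-801, a direction likewise fixed by their choice. A choice by ratio favours dim saline signals among higher probes and bright ones among lower probes, so the classes were also counted by the mean brightness of both channels.

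Counted in that way in 3 groups, higher probes were more frequent among dim than among bright probes, while the share of lower probes varied less. In the 4 dimmest of 10 equal classes, 119 of 4319 probes (2.76%) were higher and 65 (1.51%) were lower. In the 3 middle classes the numbers were 49 (1.51%) and 32 (0.988%) of 3238 probes, and in the 3 brightest they were 37 (1.14%) and 44 (1.36%) of 3239 probes. The dimmest class had 22 higher and 2 lower probes, and the limit in both channels restricts which ratios can be seen there. The technical error was also larger among dim probes, with a median of 0.16 in the dimmest class and 0.08 in the brightest. With a constant factor between the dyes in place of the loess curve, the dimmest 4 classes held 100 higher and 80 lower probes and the brightest 3 held 39 and 41.

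**Figure D3:**
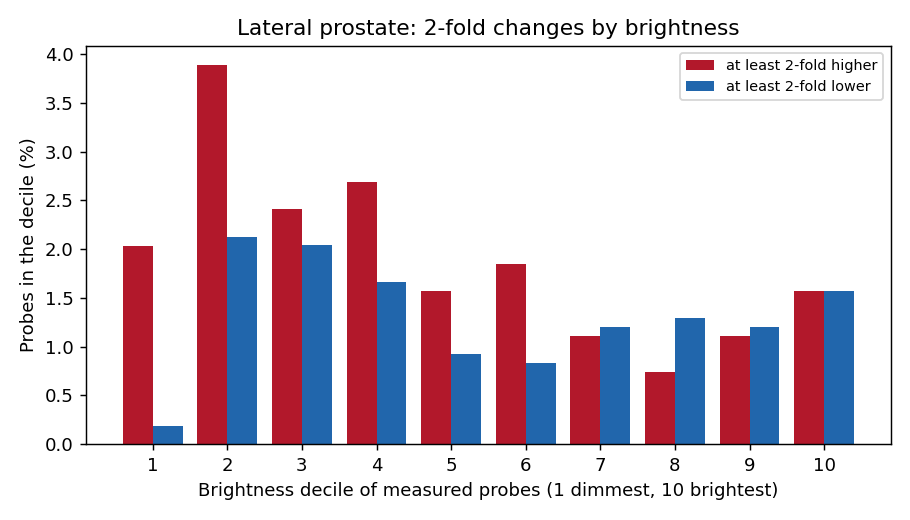
Percentage of measured probes at least 2-fold higher (red) or lower (blue) with OBP-801 in lateral prostate (vertical axis), in 10 classes of about 1080 probes ordered by mean brightness of both channels (horizontal axis). The second class had the most changes, with 42 higher and 23 lower probes, and the brightest had 17 of each.

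The brightest probes of the array mostly lay close to the loess curve. Of the 100 brightest measured probes, which held 24.4% of the net signal with saline and 24.0% with OBP-801, 88 were within 1.5-fold. Their median log2 ratio was -0.02, but the curve sets such a median near 0 in advance. Of these 100 probes, 4 were at least 2-fold lower, by 2.01-fold to 2.34-fold from saline signals of 23716 to 47194 units. On the ventral array the same 4 probes were 1.51-fold to 2.53-fold lower. A single probe among the 100 was at least 2-fold higher, by 2.96-fold. With a constant dye factor these counts were 3 lower and 2 higher. The OBP-801 signal of 2 gene probes was at the detector ceiling of 65535 units, so their ratios may be understated. At the median dye factor of 2.01, an unchanged probe with 47194 saline units would pass this ceiling with OBP-801. Ratios of the brightest probes are thus limited upward, and the part of this limit in the 4 lower probes was not tested.

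Some probes gave signal in 1 channel only and stood outside the measured probes and the ranks given above, although several of their bounds exceeded those ratios. In 3 of the 20174 gene probes OBP-801 RNA exceeded 10 blank SDs while saline RNA was not well above background, under 2 blank SDs. These 3 were higher by bounds of 5.78-fold, 5.94-fold and 15.6-fold. The strongest of them had 1.66 net units with saline and 76.2 units with OBP-801, and in the ventral lobe 0.11 and 11.4 units. In the other direction 8 of the 20174 exceeded 10 blank SDs in saline RNA and were not well above background in OBP-801 RNA. Their signals were lower by bounds of 4.89-fold to 9.32-fold. These bounds set the dim channel to the lowest detected signal or its own value, whichever was higher. They make no allowance for the noise of that channel, so the true folds may be smaller. All 8 had saline signals of no more than 25.1 units. Of 809 spots described as having no probe, 2 (0.247%) met the same criterion in saline RNA, the brighter with 13.4 units, and 7.54% exceeded 10 blank SDs in saline RNA. The OBP-801 criterion was met by 0 of these spots and by 1 of 5808 blank spots (0.0172%), and the saline criterion by 0 blank spots. Signal in 1 channel thus also arose without a gene probe, and its part in the 3 and the 8 probes was not tested. Between the limits of 2 and 10 blank SDs in 1 channel lay 812 more probes, of which 89 were at least 2-fold higher and 79 at least 2-fold lower. They reached 7.72-fold higher and 8.26-fold lower and stood outside the counts of measured probes, and the direction of their ratios is largely set by which channel was dim.

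The lateral ratios were then set beside those of the ventral array, which had its own saline and OBP-801 RNA, the same dyes and no replicate. At least 2-fold higher in the ventral lobe were 2.26% of 11825 measured probes, and 0.778% were at least 2-fold lower. Of the 205 probes higher in lateral prostate, 184 were measured in the ventral lobe, and 113 of these (61.4%) were also at least 2-fold higher there. They made 51.6% of the 219 higher ventral probes measured on both arrays. The median fold of the 184 probes was 2.27 in lateral and 2.18 in ventral prostate. Of the 141 lower probes, 140 were measured in the ventral lobe, and 31 (22.1%) were at least 2-fold lower there as well, 56.4% of the 55 lower ventral probes. The median of the 140 was 2.35-fold lower in lateral and 1.73-fold lower in ventral prostate. These counts moved with the processing. The shared higher and lower probes were 28 (51.9% of the lateral ones) and 14 (24.6%) with the offset of 50 units, 331 (40.7%) and 73 (18.1%) with the local background subtracted, and 203 (53.7%) and 70 (23.8%) with a limit of 2 blank SDs. The lateral values chose these probes, so the smaller ventral medians are a description and no test of a lobe difference. A dye preference that a probe shows on both arrays would enter both ratios alike, and its part in the overlap was not tested.

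Probes whose lateral response went beyond the ventral one were few. Over the 10702 probes measured on both arrays the lateral ratio minus the ventral ratio had an SD of 0.25 on the log2 scale. The difference was at least 2-fold for 55 probes, with the lateral ratio above the ventral in 21 and below it in 34. Among the 184 higher probes, 10 (5.43%) exceeded their ventral ratio by at least 2-fold. Of these 10, 9 were within 1.5-fold of no change in the ventral lobe while 2.16-fold to 3.98-fold higher in lateral prostate. The brightest of the 9 went from 568 units with saline to 3656 units with OBP-801, 3.19-fold higher, whereas its ventral signals were 55.3 and 124 units and 1.09-fold apart. Among the 140 lower probes, 17 (12.1%) were at least 2-fold further down in the lateral lobe. Of these 17, 13 were within 1.5-fold of no change in the ventral lobe while 2.14-fold to 5.82-fold lower in lateral prostate. The strongest of the 13 went from 488 units with saline to 167 units with OBP-801, 5.82-fold lower after dye balance. Its ventral signals were 439 and 723 units, 1.29-fold lower with OBP-801 after dye balance. The brightest had 5347 and 4051 units in lateral prostate, 2.75-fold lower, and 9370 and 16357 units in ventral prostate, 1.20-fold lower. The 184 and 140 probes were chosen by their lateral ratios, which favours a response beyond the ventral one. None of these lobe differences could be tested with 1 array per lobe.

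**Figure D4:**
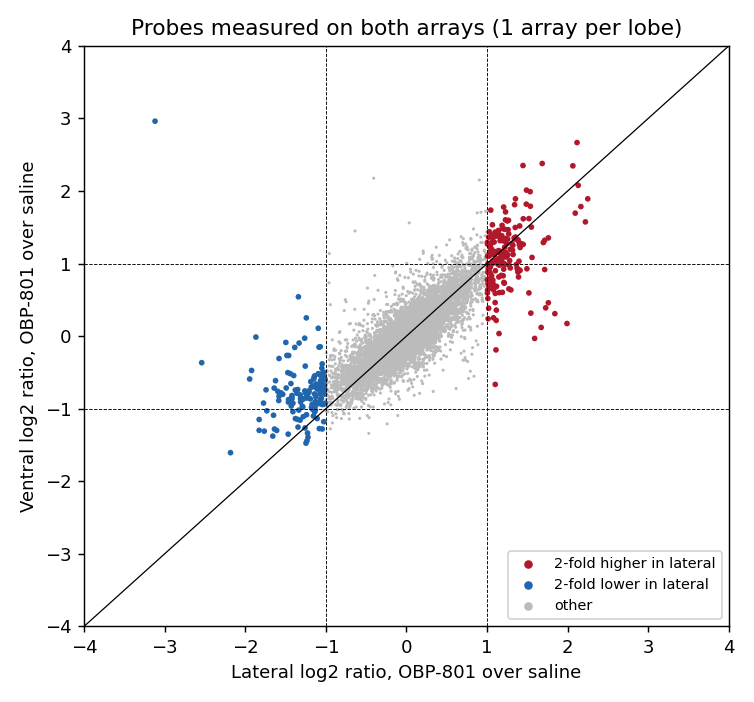
Log2 ratio of OBP-801 over saline in lateral (horizontal axis) and ventral prostate (vertical axis) for the 10702 probes measured on both arrays, 1 point per probe. Red and blue mark the 184 probes at least 2-fold higher and the 140 at least 2-fold lower in lateral prostate, dashed lines mark 2-fold and the solid line marks equal ratios. The blue point at -3.12 and 2.96 is ENSRNOG00000004320.

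The signals of the changed probes were also set side by side for the 2 lobes. The median net signal of the 140 lower probes was 186 units in lateral and 271 units in ventral saline RNA, and 160 and 378 units in OBP-801 RNA. For all probes measured on both arrays the medians were 142 and 153 units in saline and 281 and 318 units in OBP-801 RNA. The 184 higher probes had medians of 48.7 and 41.3 units in saline and 240 and 198 units in OBP-801 RNA, in the same order of lobes. These are signals of separate arrays, not scaled to each other, and the lateral signals also enter the ratios by which the probes were chosen.

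The array was printed in blocks, which were compared for an effect of position. The median log2 ratio of the 24 printed blocks ran from -0.07 to 0.10, and the share of probes at least 2-fold apart from 2.13% to 4.69%.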

How the data were processed

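Per the labels' protocols, total RNA was amplified with an amino allyl kit, and saline RNA was coupled to Cy5 and OBP-801 RNA to Cy3. Per the file headers, the deposited scanner files hold median intensity values of each spot and of its surroundings at both wavelengths, reconciled over 3 scanner gains, with no background subtracted. The image software is not given in the sources used. The authors' deposited log2 table equalled the median-centred log2 ratio computed here from blank-subtracted signals of the scanner file (SD of the difference 2.1e-05), which gives its scale, centring and direction. Its columns had medians of 0 in ventral and -5.5e-10 in lateral prostate.

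The mean of 5808 blank spots (5% left out at each end) was subtracted, and the blank SDs were taken from the same trimmed spots. Ratios were normalized by loess (span 0.3, 4 iterations, limma 3.58.1 in R 4.3.3) fitted on unflagged gene probes at least 2 blank SDs above the blank mean in both channels. The scanner had flagged 8 lateral gene probes, which were left out. No probe ID matched the reference table used here (RefSeq, GRCr8), so none of 44 gene lists was evaluated, and the 2 highest and 2 lowest measured probes were named by ID, as set for that case. The other probes described by their values were chosen after these were seen. Members, lists and limits were chosen with earlier results of these data known. No test across samples was possible, and the number of arrays limits the precision. The calculation of ratios was checked on simulated data with a constant dye factor. That check did not cover a dye balance that changes with brightness. Summaries used Python 3.11.15, numpy 2.4.6 and pandas 2.3.3, and figures matplotlib 3.10.9.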

Additional observations from a re-analysis of the deposited data

Results flagged for a closer look

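ENSRNOG00000004320 moved in opposite directions in the lobes, with a log2 ratio of OBP-801 over saline of -3.12 in lateral and 2.96 in ventral prostate. With a single array in each lobe, this difference was not tested.

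Some control spots of the lateral array also gave signal. Among 809 spots described as having no probe, 7.54% exceeded 10 blank SDs with saline and 0.124% with OBP-801, and 0 did so in both channels, against 0.207% and 0.121% of blank spots. Among 521 quality control spots, 37.4% exceeded 10 blank SDs with saline and 37.6% with OBP-801.

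A gene probe flagged by the scanner at all 3 gains, and left out above, had a log2 ratio of 3.21 in lateral prostate, with net signals of 15.6 units for saline and 278 units for OBP-801. On the ventral array it had 2.32 and 10.4 units.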

How the results depend on the processing

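Loess within each printed block and the retention of flagged probes were alternatives chosen after seeing the data, as were all alternatives for the probes shared with the ventral array except median centring. No paired analysis was possible because there is only a single array for each lobe. Alternatives for gene lists were not run, as no list was evaluated. In the order higher and lower in lateral prostate, then higher and lower shared with the ventral lobe, the counts of 205, 141, 113 and 31 became 58, 58, 28 and 14 with normexp and an offset of 50, 836, 409, 331 and 73 with the local background subtracted, and 406, 300, 203 and 70 with a limit of 2 blank SDs. At 1.5-fold there were 890 higher and 732 lower probes, and at 3-fold 22 and 21. The other 20 values of these counts, under median centring, the authors' table, a limit of 20 blank SDs, loess by block and flagged probes kept, stayed within 1.5 times. Of the 205 higher and 141 lower probes, 182 and 138 were also at least 2-fold apart with median centring, 58 and 58 with normexp, and 130 and 102 with the local background. Their sign was the same for all 346 with median centring and with normexp, and for 200 and 128 with the local background. With the local background 4 and 5 had no ratio, and the remaining higher and lower probes changed sign. The log2 ratios of the 4 probes given by ID kept their sign in 20 values under alternatives, 7 of which moved by more than the technical error. The lowest and highest were 1.72 and 2.32 for ENSRNOG00000015438, 2.06 and 2.24 for ENSRNOG00000013768, -3.82 and -2.58 for ENSRNOG00000009768, and -3.33 and -2.99 for ENSRNOG00000004320. Low signal over background limits the ratios of dim probes most.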
